A study of Mus musculus with 35 samples.

Results

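The change in H3K27me3 between fetal and full-grown mouse oocytes was described from 1 deposited peak list per stage. The members were all H3K27me3 peaks on the 19 autosomes at E18.5, the embryonic day in the labels, and in germinal vesicle (GV) oocytes, 3831 and 3876 peaks, 7707 of the 167982 peaks in the 13 lists of the series. The series mapped H3K4me3, H3K27me3 and H3K36me3 in female germ cells by CATCH-seq, which enriches unfixed chromatin from few cells after micrococcal nuclease digestion, with added carrier DNA. Besides the animal oocytes it covers 3 cultured stages grown from embryonic stem cells, c7 oogonia-like cells and c13 and c34 oocyte-like cells. E18.5 oocytes came from mice with the Prdm1-mVenus and Dppa3-ECFP reporters, and GV oocytes from BDF1 mice. The labels give the genotype of both as WT. Each stage has its own mouse line, so stage and line cannot be told apart. The labels give 2 H3K27me3 libraries at E18.5 and 1 in GV oocytes. Their read depth and their combination into a list were not stated in the sources used here. With 1 list per stage no test across samples was possible and no p-value is given. Values of the 19 autosomes show how far a result varied along the genome, which is not replicate error.

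H3K27me3 is written by Polycomb repressive complex 2 and is known for holding developmental regulators silent. In growing mouse oocytes it also lies in broad domains away from genes, and some of these domains silence the maternal copy of imprinted genes in the embryo. H3K36me3, which covers transcribed gene bodies, hinders Polycomb repressive complex 2. H3K4me3 marks promoters and is known to spread over broad domains in full-grown oocytes. Fetal oocytes at E18.5 are in meiotic prophase, whereas GV oocytes are full grown and arrested in it.

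Each autosome was divided into bins of 10 kb, the grid of the deposited peaks. A bin or gene is called lost where it was marked at E18.5 but not in GV oocytes, kept where it was marked at both stages, gained where it was marked in GV oocytes but not at E18.5, and unmarked otherwise. A gene was marked where a peak covered at least 1 base within 1 kb of either of its annotated ends. Covered length near a gene is the length under peaks within 5 kb on each side of both ends, at most 20002 bases for a long gene.

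The promoters of 6 genes show the kind of sequence found in each class, and were chosen after their values had been seen. They are the 250 bases before the transcription start on the strand of the gene, from RefSeq on GRCm38.p6, with each CG dinucleotide in capitals. Nobox, an oocyte transcription factor (chr6:43309555-43309804, minus strand), and Zp3, a protein of the egg coat (chr5:135979855-135980104, plus strand), lay under E18.5 peaks and were lost. Foxl2, a transcription factor of granulosa cells (chr9:98955357-98955606, plus strand), and Irx2, an Iroquois homeobox gene (chr13:72628570-72628819, plus strand), were kept. Sohlh2, a transcription factor of early oocytes (chr3:55181794-55182043, plus strand), and Stra8, which starts meiosis (chr6:34920698-34920947, plus strand), were gained.
Nobox: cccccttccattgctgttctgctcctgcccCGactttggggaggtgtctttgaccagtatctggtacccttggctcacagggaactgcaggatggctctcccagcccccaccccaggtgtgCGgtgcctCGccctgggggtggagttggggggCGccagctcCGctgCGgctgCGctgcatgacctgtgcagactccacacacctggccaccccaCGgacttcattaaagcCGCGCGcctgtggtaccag
Zp3: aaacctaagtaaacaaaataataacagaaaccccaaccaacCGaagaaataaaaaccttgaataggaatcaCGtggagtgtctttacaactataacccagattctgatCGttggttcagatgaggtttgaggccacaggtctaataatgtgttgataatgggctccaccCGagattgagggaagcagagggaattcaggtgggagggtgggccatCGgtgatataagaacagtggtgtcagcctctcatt
Foxl2: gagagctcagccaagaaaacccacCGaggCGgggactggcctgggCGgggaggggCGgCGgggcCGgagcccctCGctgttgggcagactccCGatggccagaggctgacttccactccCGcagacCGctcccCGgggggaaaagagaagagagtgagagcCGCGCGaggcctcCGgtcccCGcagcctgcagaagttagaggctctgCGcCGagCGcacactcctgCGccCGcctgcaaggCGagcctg
Irx2: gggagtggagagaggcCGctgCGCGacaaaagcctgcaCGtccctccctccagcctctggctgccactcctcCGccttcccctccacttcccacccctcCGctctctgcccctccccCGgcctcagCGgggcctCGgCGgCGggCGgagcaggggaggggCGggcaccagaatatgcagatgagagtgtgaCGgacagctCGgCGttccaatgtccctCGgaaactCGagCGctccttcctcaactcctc
Sohlh2: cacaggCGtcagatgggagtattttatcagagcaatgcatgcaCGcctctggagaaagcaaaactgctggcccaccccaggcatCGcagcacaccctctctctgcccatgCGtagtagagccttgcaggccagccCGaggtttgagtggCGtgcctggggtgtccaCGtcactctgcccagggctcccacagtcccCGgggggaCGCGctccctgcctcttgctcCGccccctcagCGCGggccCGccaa
Stra8: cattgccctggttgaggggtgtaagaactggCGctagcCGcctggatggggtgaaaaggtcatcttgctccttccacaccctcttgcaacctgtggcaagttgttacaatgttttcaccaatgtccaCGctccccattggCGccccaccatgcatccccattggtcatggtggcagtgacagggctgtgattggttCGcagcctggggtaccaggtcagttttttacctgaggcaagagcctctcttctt
The stretches hold 11 CG dinucleotides for Nobox, 5 for Zp3, 22 for Foxl2, 19 for Irx2, 14 for Sohlh2 and 5 for Stra8. CG-rich and CG-poor promoters thus stand in both the lost and the gained class. Over 20085 RefSeq promoters of 16457 genes, each 300 bases long from 250 before to 50 after the start, the median count of CG was 9 in lost, 8 in kept, 10 in gained and 17 in unmarked promoters. Promoters with 10 or more CG made up 48.4% of the lost, 43.4% of the kept, 50.6% of the gained and 57.9% of all promoters, so the 3 marked classes all held fewer CG than unmarked promoters did. Of the promoters marked at E18.5, 63.1% were lost among those with 1 or no CG and 61.7% among those with 15 or more, with the lowest share, 53.3%, at 5 to 9.

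H3K27me3 covered less of the genome in GV oocytes than at E18.5, and most of the length covered at E18.5 was not covered there. By number, 2013 of the 3831 E18.5 peaks shared at least 1 base with a GV peak. E18.5 peaks covered 976.57 Mb, 40.6% of the 2403.81 Mb of autosomes, and GV peaks 696.86 Mb or 29.0%, a log2 ratio of -0.49. Between the stages 583.09 Mb was lost, 393.48 Mb kept and 303.38 Mb gained. Thus 59.7% of the E18.5 length was lost and 43.5% of the GV length was gained. The lists shared 0.307 of their joint length (Jaccard index), and independent placement of the same lengths would share 283 Mb, less than the 393.48 Mb that was kept.

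Chromosomes varied in how much they turned over. The log2 ratio of GV to E18.5 length was below 0 on 18 of 19 autosomes. It was lowest on chromosome 13 (-1.12), with a median of -0.44, and was above 0 on chromosome 7 alone (0.16). The lost share of the E18.5 length ran from 47.9% on chromosome 7 to 73.5% on chromosome 1, with a median of 60.4%. The gained share of the GV length ran from 24.8% on chromosome 13 to 60.1% on chromosome 1. Chromosome 1 had the lowest covered share at both stages, 29.5% and 19.6%, and the lowest Jaccard index, 0.19, against 0.396 on chromosome 11, which had the highest. E18.5 coverage ranged more widely between autosomes (29.5% to 56.7%) than GV coverage (19.6% to 37.5%).

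**Figure D1:**
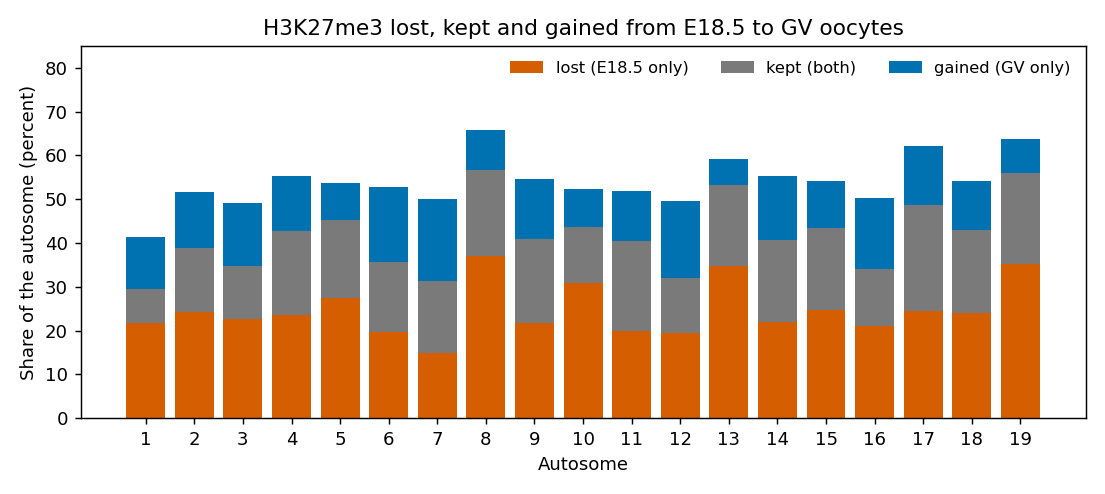
Share of each autosome (percent, y axis) that was lost, kept or gained between the E18.5 and GV H3K27me3 lists, stacked per autosome (x axis). The lost part exceeds the gained part on every autosome but chromosome 7, where the log2 ratio of GV to E18.5 length is 0.16.

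GV peaks were narrower, and narrow fetal peaks were those most often absent from the GV list. The median peak width was 160 kb at E18.5 and 110 kb in GV oocytes, and peaks of 1 Mb or more numbered 100 and 48. Of the 3831 E18.5 peaks, 1818 (47.5%) shared no base with a GV peak and 1286 had at least 50% of their length in GV peaks. Of the 3876 GV peaks, 1502 (38.8%) shared no base with an E18.5 peak, whereas 1434 lay entirely inside one. E18.5 peaks lost whole had a median width of 110 kb. Their share was lower the wider the peaks, from 76.4% of peaks of 50 kb or less to 4.0% of peaks of 1 Mb or more. Among GV peaks, the share gained whole ran from 46.9% to 2.08% over the same widths. A wide peak has more length in which to meet a peak of the other list. Measured by length instead, 21.0% of the narrowest E18.5 class lay in GV peaks and 52.1% of the widest.

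Loss took the form of whole domains, trimmed edges and splits. Domains lost whole held 48.2% of the lost length. A further 38.4% flanked a kept stretch on 1 side, and 13.4% lay between kept stretches. Among E18.5 peaks 1517 held 1 GV peak and 496 held 2 or more, up to 9. The gained length stood alone more often, 62.6% of it in peaks gained whole, 27% on the flank of a kept stretch and 10.4% between kept stretches.

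**Figure D2:**
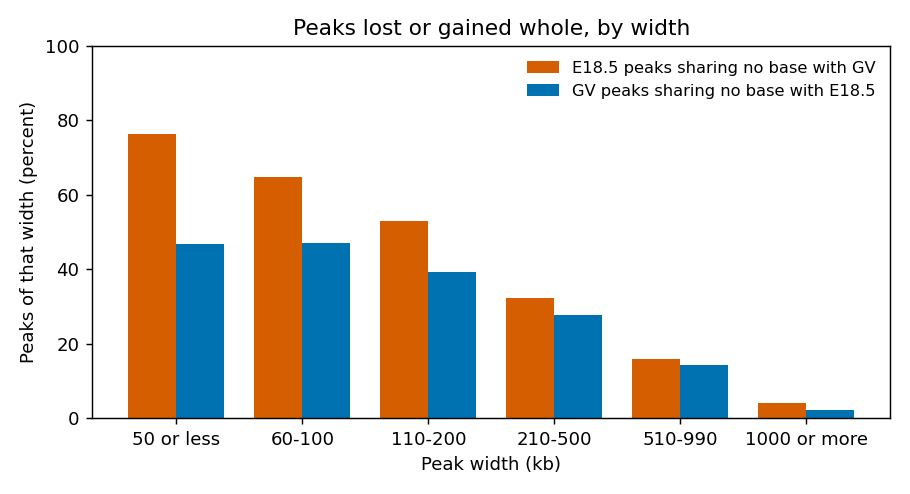
Share of peaks (percent, y axis) that shared no base with the list of the other stage, by peak width in kb (x axis), for E18.5 peaks and GV peaks. The share falls from 76.4% to 4.0% of E18.5 peaks and from 46.9% to 2.08% of GV peaks between the narrowest and the widest class.

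Marked bins of all 3 classes were poorer in genes than the rest of the genome. Lost bins held 6.69 protein-coding genes per Mb, kept bins 7.30 and gained bins 7.20, against 10.3 in unmarked bins and 8.55 over all autosomes. Relative to the whole of the same autosome, the density of lost bins was below 1 on 18 of 19 autosomes and that of gained bins on 16, whereas kept bins were below 1 on 13. Lost bins were the poorest in genes, but the 3 classes differed by less than the spread over autosomes. The ratio ran from 0.557 to 1.00 for lost, from 0.532 to 1.33 for kept and from 0.515 to 1.14 for gained bins. Gene bodies filled 32.7% of the lost, 33.5% of the kept, 39.8% of the gained and 49.6% of the unmarked length.

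Coverage did not follow gene density in one direction over windows of 1 Mb. With the 2394 windows in 5 equal groups by their number of protein-coding genes, E18.5 coverage was 34.8% in the poorest group, 46.9% in the next, and then 44.4%, 40.2% and 36.6% up to the richest. GV coverage lay between 28.1% and 30.8% in all 5. The stages therefore differed by 6.18 points in the poorest group and by 17.5 points in the next. Across windows, Spearman's rho with gene number was 0.00 for E18.5 and 0.03 for GV coverage, given as a description of neighbouring windows that share peaks. In the 581 stretches of 500 kb or more that hold no protein-coding gene, 677 Mb in all, E18.5 peaks covered 43.2% and GV peaks 31.6%, against 40.6% and 29.0% of all autosomes.

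**Figure D3:**
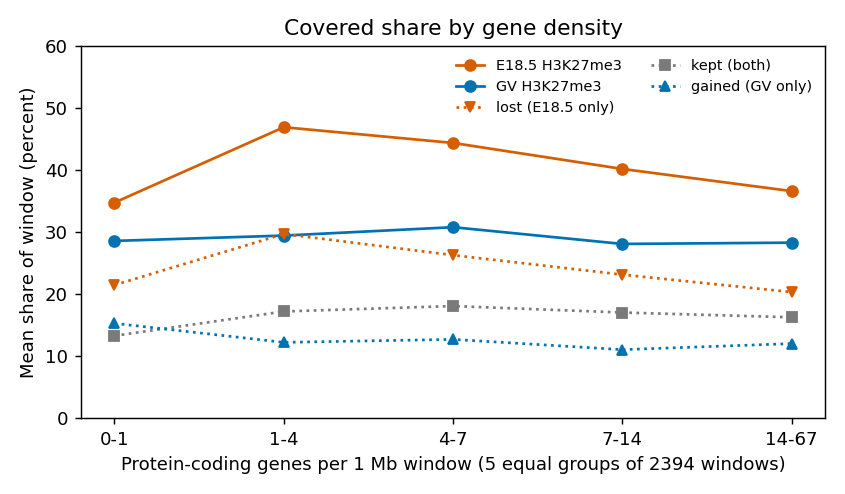
Mean share of 1 Mb windows (percent, y axis) under E18.5 and GV H3K27me3 (solid lines) and in the lost, kept and gained classes (dotted lines), by 5 equal groups of windows ordered by protein-coding genes per window (x axis, lowest to highest number). E18.5 coverage peaks at 46.9% in the group with 1 to 4 genes, whereas GV coverage stays between 28.1% and 30.8%.

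Lost regions differed from kept and gained regions in the other marks of GV oocytes, which took no part in defining them. By definition lost regions lack GV H3K27me3, whereas kept and gained regions carry it. Unmarked regions also lack it and are given beside them. GV H3K4me3 covered 39.0% of the lost length, 14.9% of the kept and 13.4% of the gained, against 25.4% of the unmarked and 25.5% of all autosomes. Lost regions exceeded kept regions on all 19 autosomes, with 32.4% to 54.5% of the lost and 9.53% to 30.8% of the kept length covered. GV H3K36me3 covered 45.1% of the lost length but 14.7% of both the kept and the gained length, and 51.8% of the unmarked. Lost again exceeded kept on all 19 autosomes. The GV H3K4me3 list, like the GV H3K27me3 list, has 1 library in the labels, and the H3K36me3 list 2.

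At E18.5 the same regions differed little in H3K4me3, which covered 4.56% of the lost, 5.01% of the kept and 4.48% of the gained length. Fetal H3K36me3 covered 31.5% of the length that was later lost, 21.8% of the kept and 16.7% of the gained. It was above the kept share on 18 of 19 autosomes. Both marks could therefore overlap H3K27me3 peaks at this resolution, and peak lists cannot tell whether they lay on the same chromosomes or cells. Taking the stages in turn, the share of the lost length with neither H3K4me3 nor H3K36me3 was 64.9% at E18.5 and 25.7% in GV oocytes. In kept regions it was 74.0% and 73.3%, and in gained regions 79.5% and 74.7%.

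Domains lost whole and lost flanks were compared in the same marks. GV H3K36me3 covered 42.6% of the former and 47.1% of the latter, and GV H3K4me3 36.6% and 41.3%. E18.5 H3K36me3 had the opposite order, with 37.4% of the domains lost whole, 28.1% of the flanks and 20.2% of the stretches lost between kept ones. c34 H3K27me3 covered 26.7% of the domains lost whole and 43.1% of the lost flanks, and c13 H3K27me3 37.4% and 66.2%.

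H3K27me3 of the cultured stages divided the classes as well. The c34 list covered 88.2% of the kept, 64.7% of the gained, 36.8% of the lost and 13.4% of the unmarked length. The c7 list, from the youngest of the cultured cells, held more of the lost (58.1%) than of the gained length (31.2%), and 68.4% of the kept. c13 cells lay between, with 53.3% of the lost and 48.3% of the gained length, and the gained share was above the lost share on 7 of 19 autosomes. The lost length thus exceeded the gained length in c7, and the order was the opposite in c34.

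**Figure D4:**
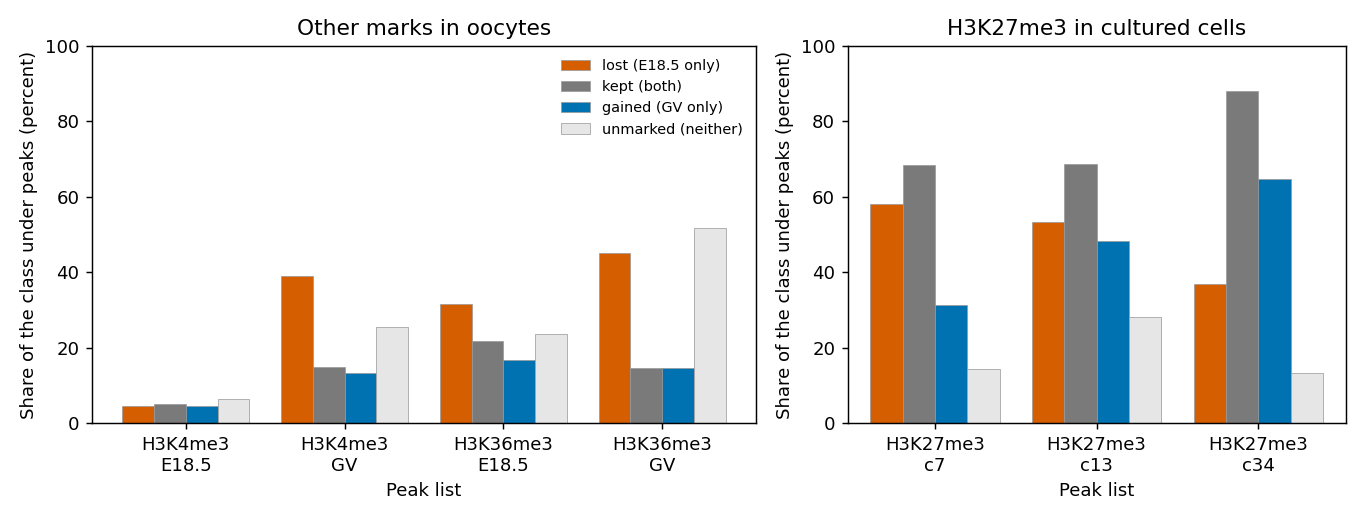
Share of the lost, kept, gained and unmarked length (percent, y axis) under the peaks named on the x axis. The left panel shows H3K4me3 and H3K36me3 of E18.5 and GV oocytes, and the right panel shows H3K27me3 of the cultured stages. GV H3K36me3 covers 45.1% of lost but 14.7% of kept and gained regions, and c34 H3K27me3 covers 88.2% of kept regions.

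The longest stretches of each class illustrate these differences. The longest lost stretch, chr8:112470001-114180000 (1710 kb on GRCm38), holds Adamts18, Cntnap4, Mon1b, Nudt7 and Syce1l. GV H3K36me3 covered 65.5% of it. Next come 1480 kb around Zfhx3, a large homeobox zinc finger gene (chr8:107660001-109140000), with 91.9% under GV H3K36me3, and 1260 kb around Fam155a (chr8:8700001-9960000), with 67.5%. Then follow 1190 kb with Bmper and Npsr1 (chr9:22930001-24120000) with 37.8%, and 1130 kb with Gnaz, Pcdh15 and Rsph14 (chr10:73840001-74970000) with 76.1%. The first 3 lie on chromosome 8, the autosome with the highest E18.5 coverage, 56.7%.

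The longest kept stretch ran for 2010 kb over Bcl11b, a zinc finger factor of T cells and neurons (chr12:106090001-108100000), followed by 1610 kb with Arpp21 (chr9:111840001-113450000). Then came 1570 kb with Irx1, Irx2 and Irx4 (chr13:71800001-73370000), 1110 kb with Sall1 (chr8:88780001-89890000) and 1100 kb with Nog, a secreted inhibitor of bone morphogenetic proteins (chr11:89080001-90180000). GV H3K36me3 covered between 0.0% and 27.3% of these 5.

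Among gained stretches the longest, chr9:46020001-47230000 (1210 kb), spans the apolipoprotein genes Apoa1, Apoa4, Apoa5 and Apoc3. Next were 1010 kb with Gm32936 as its sole protein-coding gene (chr12:59590001-60600000) and 980 kb with none (chr14:85240001-86220000). A stretch of 970 kb holds Ankk1, the dopamine receptor gene Drd2 and the cell adhesion gene Ncam1 (chr9:49100001-50070000), and 940 kb lies over Pcdh9 (chr14:92830001-93770000). GV H3K36me3 covered 40.5% of the stretch with Apoa1, 6.19% of that with Drd2 and 0.0% of the other 3. c34 H3K27me3 covered 100.0% of these same 2 but 4.08% to 14.9% of the other 3.

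At genes, loss exceeded gain in the lists as deposited. Of 20560 protein-coding autosomal genes, 4478 were lost (21.8%), 3466 kept (16.9%), 2403 gained (11.7%) and 10213 unmarked (49.7%). The order depended on covered length: with the E18.5 list cut to its widest peaks so that it covered the GV length, 2599 genes were lost and 3349 gained. H3K27me3 thus marked 7944 genes at E18.5 and 5869 in GV oocytes. These shares over all genes are the background against which the gene lists below are read. In the 500 kb around the gene midpoint, 68 genes went from full coverage to none and 26 from none to full. Taken alphabetically and at most 1 per Mb, the first include Abca15, Adamts18, Amacr, Bmper, Car10 and Cobl, and the second Ankk1, Cd82, Col5a1, Cyp3a11, Dazl and Galnt18.

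Genes that lost H3K27me3 often carried other marks in GV oocytes. H3K4me3 lay at the ends of 81.7% of lost genes in GV oocytes, against 58.4% of kept, 65.4% of gained and 81.8% of unmarked genes. At E18.5 these shares were 54.3%, 46.0%, 57.2% and 72.8%. Of the genes without H3K4me3 at E18.5, it was present in GV oocytes at 64.2% of 2047 lost genes, 38.2% of 1872 kept genes and 36.6% of 1028 gained genes. H3K36me3 covered at least 20% of the body in 65.2% of lost, 33.7% of kept, 43.6% of gained and 77.4% of unmarked genes in GV oocytes. At E18.5 these shares were 28.3%, 18.1%, 14.6% and 21.2%, so H3K36me3 was more frequent in GV oocytes in every class. Gene length hardly differed, with medians of 16.4 kb for lost, 17.2 kb for kept, 19 kb for gained and 17.9 kb for unmarked genes.

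The markers fixed for oocytes were read at their ends. All 7 (Nobox, Figla, Gdf9, Zp3, Ddx4, Dazl and Sycp3) carried H3K4me3 at E18.5 and in GV oocytes, while 3 carried H3K27me3 at E18.5 and 1 in GV oocytes. Of 6 markers of ovarian somatic cells (Foxl2, Amhr2, Cyp19a1, Nr5a1, Fshr and Wt1), 3 carried H3K4me3 at each stage, and H3K27me3 lay at 5 and then 4. No expression was measured, and other cells in the samples were not tested.

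Oocyte genes were mostly in the lost class. Of 26 oocyte factors 15 were lost, none was kept and 4 were gained, 57.7% lost beside 21.8% of all genes. Lost members include Lhx8, a transcription factor of primordial follicles, Btg4, which drives clearance of maternal mRNA, and Zp2, a coat protein. Each went from 20002 bases covered around its ends to 0. The same held for Nlrp2, Nlrp14 and Oosp1, which oocytes express, and for Tle6, of the subcortical maternal complex. Nlrp5, Ooep, Padi6 and Khdc3, also of that complex, were unmarked instead, with 0 bases at both stages. Among the markers, Gdf9, the growth factor by which oocytes act on granulosa cells, went from 12904 bases to 0, Nobox from 16399 to 0 and Zp3 from 14896 to 0. In GV oocytes 13 of these 15 genes carried H3K4me3 at an end and 11 carried H3K36me3 over the body, against 9 and 5 at E18.5. Of the 7 unmarked members, 7 and 6 did so in GV oocytes, against 3 and 1 at E18.5. With the E18.5 list cut to the GV length, 9 of the 26 were lost and 4 gained. For the gene lists this cut was chosen after seeing the data. Over all 42 lists and families it lowered the number of lost members by more than 1.5 times in 22, among them the germline and piRNA genes with 5 lost, the maternal germline imprints with 3 and the enzymes of DNA and histone methylation with 3. In 12 of the 42 it turned the balance of gained against lost members from fewer gained to more gained. The cut only takes E18.5 peaks away, so the direction of these changes was fixed in advance. Over all genes it left 2599 of the 4478 lost genes as lost.

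The 4 gained oocyte factors are Sohlh1 and Sohlh2, transcription factors of early follicles, Taf4b, a subunit of the basal transcription machinery in germ cells, and H1f8, the linker histone of oocytes. Sohlh2 went from 0 to 20002 bases, Sohlh1 from 0 to 14254, Taf4b from 0 to 10001 and H1f8 from 0 to 5242. All 4 carried H3K4me3 at an end in GV oocytes. GV H3K27me3 filled the windows around both ends of Sohlh1 and Sohlh2, so there the marks overlapped at this resolution. It covered 28.5% of the body of Taf4b and 4.56% of that of H1f8. In these genes the marks may lie at different ends.

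Of 27 meiotic genes 15 were unmarked, 3 lost, 5 kept and 4 gained. The unmarked, kept and gained counts lay near the shares of all genes, such as 14.8% gained beside 11.7%, and 11.1% were lost beside 21.8%. The gained members were Stra8, the retinoic acid target that starts meiosis, Spo11, which cuts DNA for recombination, Rec8, a meiotic cohesin, and Rec114. Spo11 went from 0 to 20002 bases and Stra8 from 0 to 15164. Lost members were Meioc, the cohesin Rad21l and Prdm9, which places recombination hotspots. Among 22 germline and piRNA genes 8 were lost (36.4%, beside 21.8% of all genes), 1 kept (4.5%, beside 16.9%) and 4 gained (18.2%, beside 11.7%). Dazl, an RNA-binding protein of germ cells (chromosome 17, 50279393 to 50293620), went from 0 to 20002 bases, and coverage of its 500 kb from 0% to 100%. Piwil4, Mov10l1 and Tex101 were gained with it, whereas the piRNA factors Tdrd1, Tdrd9, Gtsf1 and Piwil1 and the repressor gene Nanos2 were lost.

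Among 23 genes of pluripotency and the early germ line, 5 were gained (21.7%, beside 11.7% of all genes) and 2 lost (8.7%, beside 21.8%). A further 6 were kept (26.1%, beside 16.9%) and 10 unmarked. Nanog, Dppa3, Utf1, Nodal and Zfp42 were gained. Nanog went from 0 to 17145 bases and Dppa3, a maternal factor named in the E18.5 reporter, from 0 to 13848. All 5 were marked in c34 cells and none in c7 cells, beside 84.5% and 45.1% of all gained genes. Of the 6 kept members 6 were marked in c34 and 4 in c7. The 2 lost genes were Lin28a and Tbx3.

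Neural regulators were mostly kept, while those of mesoderm and endoderm were split between kept and lost. Of 30 neural regulators 20 were kept (66.7%, beside 16.9% of all genes), 6 lost (20.0%, beside 21.8%) and 2 gained (6.7%, beside 11.7%). The lost members were Dlx1, Dlx2, En2, Neurog1, Olig1 and Olig2, each at 0 bases in GV oocytes after 11703 to 16495 at E18.5. All 6 carried H3K4me3 at both stages, and all were marked by H3K27me3 in c7, c13 and c34. Of 30 mesoderm and endoderm regulators 13 were kept (43.3%, beside 16.9%), 11 lost (36.7%, beside 21.8%) and 1 gained (3.3%, beside 11.7%). Without peaks of 1 Mb or more, an alternative chosen after seeing the data, these counts were 9, 10 and 5. The lost members include T, the mesoderm factor brachyury, Sox17 and Foxa1 of the endoderm, Hand2 and Tbx20 of the heart, and Pdx1 of the pancreas. T went from 18074 bases to 0 and Sox17 from 16499 to 0. All 11 carried H3K4me3 in GV oocytes, against 6 at E18.5, beside 81.7% and 54.3% of all lost genes. Of the 13 kept members 9 carried it in GV oocytes, against 10 at E18.5. H3K27me3 of c34 cells marked 10 of the 11 lost and 13 of the 13 kept members. Gata4, Eomes, Cdx2 and Hnf4a were kept with less coverage, Eomes with 17947 bases at E18.5 and 6815 in GV oocytes.

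Gene families were defined by symbol, and their counts stand beside 21.8% lost, 16.9% kept and 11.7% gained over all genes. All 6 Iroquois genes were kept, as were 37 of 39 Hox genes, 7 of 9 Pax genes and 10 of 14 Nkx genes. Without peaks of 1 Mb or more, none of the 6 Iroquois genes was kept, 3 were lost and 3 were unmarked. With the E18.5 list cut to the GV length, 28 Hox genes were kept and 9 gained. Other families of developmental transcription factors were kept less completely. T-box genes were kept at 5 and lost at 6 of 15, and Sox genes kept at 7, lost at 4 and gained at 4 of 18. LIM homeobox genes were kept at 5 of 12, with 2 lost and 3 gained. Forkhead genes were kept at 21 of 41, with 9 lost and 2 gained, and Dlx genes at 4 of 6, with 2 lost. The lost shares of Sox genes (22.2%) and Forkhead genes (22.0%) were near that of all genes. The 2 lost Hox genes were Hoxb1 and Hoxb2, neighbours in 1 cluster, and the 2 lost Pax genes were Pax4 and Pax9. These genes were named after their values had been seen. Clustered families share domains, so their members are not independent. Keratins were split, 34 kept and 18 lost of 53 with none gained, but without peaks of 1 Mb or more 16 were kept, 10 lost and 18 gained. Clustered protocadherins had 38 kept and 19 lost of 57 with none gained, but 14 kept, none lost and 24 gained with the E18.5 list cut to the GV length. Beta defensins were lost at 27 of 42, with 13 kept. Olfactory receptors, 1103 genes of sensory neurons, were lost at 331, kept at 178 and gained at 108. Vomeronasal type 1 receptors were lost at 67 of 228 (29.4%), and cytochrome P450 genes at 35 of 93 (37.6%) with 35 kept and 10 gained. With that cut, 21 cytochrome P450 genes were lost and 25 gained. Of 57 core histone genes 10 were lost (17.5%, beside 21.8% of all genes) and none was kept or gained, and with the cut none was lost. Ribosomal protein genes were mostly unmarked, 63 of 78.

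Imprinted genes divided by the way their imprint is known to be set. All 15 genes on the list of H3K27me3-dependent imprinting carried the mark at an end in GV oocytes. Of these 9 were gained (beside 11.7% of all genes) and 6 kept. With peaks over at least 50% of the body 10 were gained, 4 kept and 1 unmarked. At gene starts alone, an alternative chosen after seeing the data, 7 of 11 were gained, 3 kept and 1 lost. This list was defined in earlier work by the mark in oocytes, so its direction is not independent evidence. Gab1, Sfmbt2, Smoc1, Bbx, E2f3 and Otog each went from 0 to 20002 bases, Inhbb from 0 to 16786 and Enc1 from 0 to 16106. Of the 9 gained genes 4 had H3K36me3 over the body at E18.5 and none had it in GV oocytes. Among the kept genes, Etv6 went from 5158 to 20002 bases, while Slc38a4 and Mbnl2 went from 20002 to 10001. Over the gene body, however, coverage of Slc38a4 rose from 18.2% to 73.9%, and that of Mbnl2 went from 100.0% to 92.5%.

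Genes imprinted through maternal DNA methylation were lost more than gained. Of 16 such genes 6 were lost (37.5%, beside 21.8% of all genes), 1 was kept and 1 gained. Grb10 and Peg10 went from 20002 bases to 0, Mest and Zdbf2 from 10001 to 0 and Nnat from 12448 to 0. Gnas went from 10001 to 1744 bases, which lay beyond 1 kb of its ends, and is counted as lost. None of the 6 was marked in c34 cells, and 5 carried H3K36me3 over the body in GV oocytes against 1 at E18.5. Of the 8 unmarked genes, 7 carried H3K36me3 in GV oocytes against 3 at E18.5.

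Of 32 Polycomb genes 18 were unmarked, 6 lost, 6 kept and 2 gained. The lost and the kept share, 18.8% each, were near the 21.8% and 16.9% of all genes. The catalytic and core subunits Ezh1, Ezh2, Eed and Suz12 had no peak within 1 kb of their ends at either stage. With a margin of 5 kb, 11 of the 32 were lost. The chromodomain gene Cbx7 went from 20002 bases to 0, and Ring1, Phf1, Aebp2 and Pcgf5 were lost with it. The last of the 6 is Kdm6b, a demethylase of H3K27me3 and not a Polycomb subunit, which the list includes. Cbx2 was kept, with 18257 bases at both stages. Of 25 enzymes of DNA and histone methylation 6 were lost (24.0%, near the share of all genes), none was kept and 2 were gained. The DNA methyltransferase Dnmt3b, its cofactor Dnmt3l, Uhrf1, the oxidase Tet3, Ehmt2 and Setd1b each went from 20002 bases to 0. All 6 carried H3K36me3 over the body in GV oocytes and none did at E18.5. This was not particular to the lost genes, since all 17 unmarked members carried it in GV oocytes, against 3 at E18.5. Tet1 and Kmt2a were gained.

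Genes of ovarian somatic cells were kept more often than all genes in the lists as deposited. Of 24 such genes 13 were kept (54.2%, beside 16.9% of all genes), 9 lost (37.5%, beside 21.8%) and none gained. Without peaks of 1 Mb or more 10 were kept, 10 lost and 1 gained, and at gene starts alone 8 of 16 were kept and 8 lost. Both alternatives were chosen after seeing the data. Foxl2, Fshr, the receptor for follicle-stimulating hormone, and Wt1 had equal coverage at both stages, 12520, 20002 and 20002 bases. Lost members include Kitl, the ligand of the Kit receptor, Lgr5, Rspo1, Inhba, Hsd3b1 and Amhr2, the receptor for anti-Müllerian hormone. Amhr2 went from 19639 bases to 0. Of 36 long synaptic and adhesion genes 16 were kept, 9 lost and 4 gained, or 10, 5 and 10 with the E18.5 list cut to the GV length. In this list H3K4me3 lay at 9 of the 9 lost genes in GV oocytes, against 3 at E18.5. It also lay at 12 of the 16 kept genes, against 7, and at 6 of the 7 unmarked genes, against 2. Of the 4 gained genes, 3 carried it at each stage. Of 20 housekeeping genes 18 were unmarked and 2 lost, Psmb2 and Rplp0, with 7364 and 5534 bases at E18.5.

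**Figure D5:**
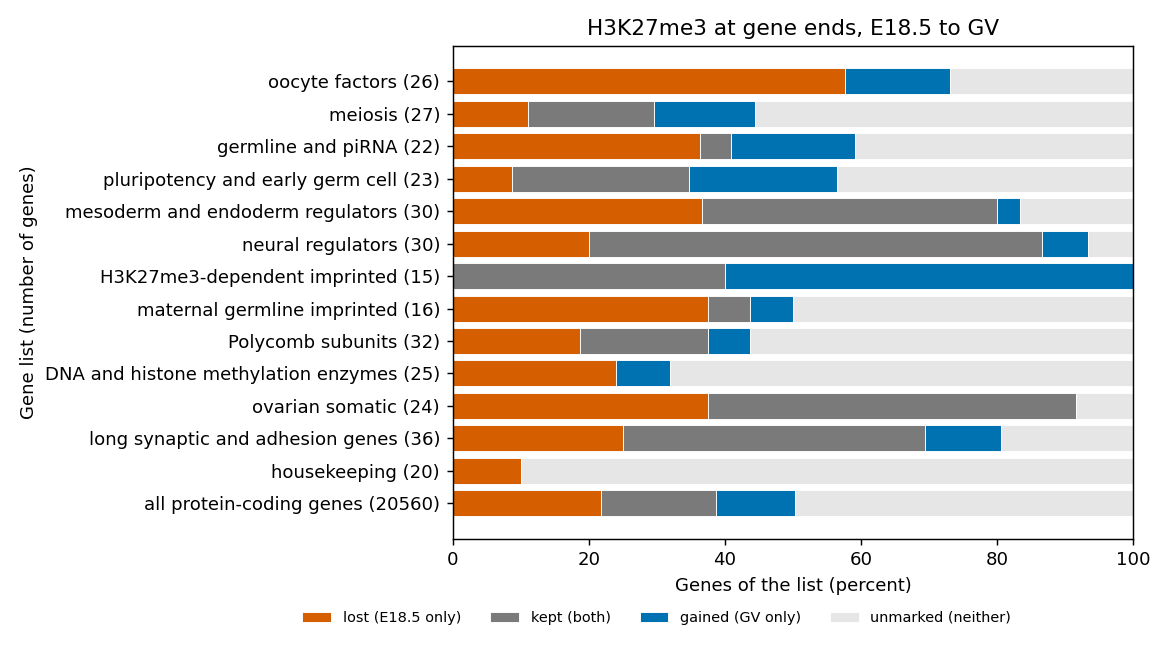
Share of the genes in each list (percent, x axis) that were lost, kept, gained or unmarked at their ends, with the number of genes in brackets and all 20560 protein-coding autosomal genes as the last bar. Oocyte factors have the largest lost part of the 13 lists (57.7%), neural regulators the largest kept part (66.7%) and H3K27me3-dependent imprinted genes the largest gained part (9 of 15).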

How the data were processed

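H3K27me3 was compared between E18.5 and GV oocytes from 1 deposited peak list each. The deposited values have an other unit than counts, namely positions in base pairs: per the file headers a chromosome, a start and an end, without a score. Starts and ends lay on a 10 kb grid, or 1 kb for H3K4me3. The submitters' processing notes list, with no role or order, MACS2 2.1.1, SICER 0.0.41, Bowtie2 2.3.4.1, Picard 2.18.23, SAMtools 1.7 and Trim Galore 0.4.1. The caller, threshold, input and pooling behind each list were not stated in the sources used here, so a shorter list can also reflect fewer reads or another threshold. Read depth is unknown.

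Lists were placed on 10 kb bins from 3 Mb on each autosome, on GRCm38. Genes came from the RefSeq table of GRCm38.p6. 105 protein-coding rows with positions inside the gap at the chromosome starts were left out. Since the gene table gives no strand, both gene ends were used; promoters gave a strand for 16457 genes. All 326 entries of 13 gene lists matched, and families were defined by symbol. H3K36me3 marked a gene from 20% of its body. Classes were described by length, width, gene density, other marks and genes. Members and lists were chosen with earlier results of these data known. Named genes were up to 8 per list and class by the size of the change, up to 10 per direction by change over 500 kb, up to 5 per stretch in the 5 longest stretches, and the fixed cell type markers. Bin and gene classes were tested on simulated data. Alternatives changed peak width, gaps, covered length, chromosomes, overlap, windows and gene rules. Scripts used matplotlib 3.10.9, pandas 2.3.3 and numpy 2.4.6 under Python 3.11.15. Peaks on Y were not analysed here.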

Additional observations from a re-analysis of the deposited data

Results flagged for a closer look

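The X chromosome lies outside the comparison of autosomes and was looked at apart because it carried H3K27me3 at both stages. E18.5 peaks covered 33.8% of its 167.86 Mb and GV peaks 14%. The log2 ratio of GV to E18.5 length was -1.27, below that of every autosome, the lowest of which was -1.12 on chromosome 13. Of the E18.5 length on X, 74.2% was lost, above the highest autosome, chromosome 1 with 73.5%. With 1 list per stage this difference between X and the autosomes was not tested, and no control samples have a list to compare with.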

How the results depend on the processing

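Read depth, threshold and pooling behind each list are unknown, so the shorter GV list and the lost and gained shares cannot be separated from how peaks were called. No paired analysis was possible because each stage has 1 peak list. For values without a test, a change was set against 1 SD over the 19 autosomes, and counts against 1.5 times. Of 146 alternatives of the main results, 133 stayed within these limits in the same direction. Many of the 146 left out 1 of the 19 autosomes, which can hardly move a value by 1 SD over autosomes. The tally therefore says little about the other alternatives, among which 8 went beyond the limits and 5 changed direction. With the E18.5 list cut to its widest peaks at the GV length, the log2 length ratio was 4.14e-05 by construction, 55.5% of the GV length was gained, and 2599 genes were lost and 3349 gained. Such a cut cannot raise a lost count or lower a gained count, here or in the gene lists. Without peaks of 1 Mb or more in the H3K27me3 lists, the Jaccard index was 0.252 and the gene-richest of the 5 groups of windows exceeded the poorest by 4.04 points in GV oocytes, against -0.28. Without such peaks in all lists, GV H3K36me3 in lost bins exceeded that in kept bins by 24.7 points, against 30.4, and gained minus lost bins was -24.2, against -30.4. Counting any shared base, 2013 E18.5 peaks were kept. With all annotated genes, lost bins had 0.939 of the overall density, against 0.782, and these groups differed by 1.63 points in GV oocytes. With 2 Mb windows this was 1.83, and with 500 kb windows it was -1.71 at E18.5, against 1.85, so neither stage had a settled direction with gene density. At gene starts alone, 2257 genes were kept among 16457. Leaving out each autosome in turn gave log2 ratios from -0.53 to -0.45, lost shares from 58.9% to 60.3%, gained shares from 42.6% to 44.3% and Jaccard indices from 0.303 to 0.315. The balance of gained minus lost members was also read in 42 lists and families. It turned in 1 with peaks over at least 50% of the body (classical cadherins, from -2 to 3) and in 0 with a margin of 5 kb. Among alternatives chosen after seeing the data, it turned in 0 at gene starts alone and in 3 without peaks of 1 Mb or more, from -18 to 8 for keratins, -2 to 5 for potassium channels and -2 to 2 for cadherins. With the E18.5 list cut to the GV length it turned in 12, from -5 to 5 for long synaptic and adhesion genes, -2 to 7 for Hox, -2 to 1 for Nkx, -6 to 2 for Wnt ligands, -1 to 2 for bone morphogenetic proteins, -19 to 24 for clustered protocadherins, -2 to 1 for cadherins, -9 to 5 for GABA and glutamate receptors, -2 to 11 for potassium channels, -45 to 5 for Zfp genes, -25 to 4 for cytochrome P450 and -10 to 11 for serpins.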

Other observations

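Further gene families are given by their counts, beside 21.8% lost, 16.9% kept and 11.7% gained over all genes. Zfp genes, mostly zinc finger repressors, were lost at 75 of 360 (20.8%, near the share of all genes). A further 25 were kept, 30 gained and 230 unmarked. With the E18.5 list cut to the GV length, 28 were lost and 33 gained. Signalling families were mostly marked: of 19 Wnt ligands 10 were kept, 7 lost and 1 gained, and of 20 fibroblast growth factors 8 were kept, 7 lost and 3 gained. With that cut 1 Wnt ligand was lost and 3 were gained. Potassium channel genes, 91 in all, had 43 kept, 19 lost and 17 gained, but 18 lost and 23 gained without peaks of 1 Mb or more. Pramel genes, a family of germ cells and early embryos, were lost at 9 of 45 (20.0%, near the share of all genes). None of them was kept or gained, and 36 were unmarked. Of the 6 Obox genes, oocyte homeobox factors, 2 were lost and 4 unmarked, and none was lost with that cut. In all 6 the GV H3K36me3 list covered at least 20% of the body, against 3 at E18.5. Near-identical copies within these clusters may share reads, and how the authors treated such reads is not given in the sources used here.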
